A study of Mus musculus with 8 samples.

Results

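Interleukins are secreted proteins through which immune, epithelial and stromal cells signal to each other, and each acts through receptor chains that are often shared between several ligands. Receptors of the IL-1 family signal through MyD88 and NF-kB, receptors of the IL-17 family through the adaptor Traf3ip2 (Act1), and most of the others through Janus kinases and STAT factors. In the intestine they connect the epithelium with intraepithelial lymphocytes, innate lymphoid cells, mast cells, phagocytes and fibroblasts, and several are held in check by soluble antagonists and decoy receptors. The genes described here were the rows of a count table of mouse intestine whose protein-coding gene symbol begins with Il and a digit, 1 gene excepted. They were 83 of the 39179 rows of the table, under 81 symbols, since Il11ra2 had 3 rows. By role, 35 rows encoded ligands, 42 receptor chains, 3 antagonists or decoys and 3 other products.

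RNA was sequenced from whole tissue of 3 wild-type and 5 adenoma samples. For wild type, small intestine was taken from mice of genotype VilCreER+, in which the villin promoter drives a tamoxifen-activated Cre recombinase in intestinal epithelium. The adenoma samples were small intestinal adenomas from VilCreER+ APCfl/+ mice, which carry 1 floxed allele of Apc, and the series describes these mice as aged. All mice had an inbred C57BL6/J background and had received tamoxifen, so Cre and tamoxifen were common to both groups while the floxed allele was not. The samples hold all cells of the tissue and not the epithelium alone, and in such bulk samples fewer cells of a type and less RNA per cell cannot be told apart. Nothing in the labels ties a library to a mouse of its own, so the spread behind the p-values is that between these libraries and may be technical.

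Several libraries stood apart, and the values that touch the results are given here once. Total counts ran from 18040301 to 28343915 per library. Apc itself, whose product restrains Wnt signalling, stood at 191 to 211 CPM in wild type and 132 to 159 CPM in adenoma, where CPM are counts scaled to the size of the library. Adenoma 2 went against its tissue label. It had 0.470 CPM of Gata4, a factor of the proximal small intestine that stood at 68.4 to 101 CPM in the other 7 libraries, and 246 CPM of Hoxb13, a gene of the distal gut that stayed under 1 CPM in the others. Wild type 1 and adenoma 5 held pancreatic lipase (Pnlip) at 190.0 and 63.5 CPM, against 0.0865 to 0.798 CPM elsewhere. All 3 wild-type libraries and adenoma 1 had the male pattern of Xist and Ddx3y, and adenomas 2 to 5 the female pattern, so for 4 of the 5 adenomas sex and genotype cannot be told apart. A fit that adds the sex pattern kept 20 of the 38 calls on interleukin genes given below, and the other 18 (Il1r1, Il1rap, Il18rap, Il2rb, Il2rg, Il4ra, Il21r, Il6, Il11ra1, Il23a, Il27ra, Il10rb, Il22ra1, Il22ra2, Il17c, Il17ra, Il17rb and Il4i1) did not pass.

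Of the 83 rows, 54 had counts high enough to be tested with edgeR's quasi-likelihood test, adjusted after Benjamini and Hochberg over all 18345 genes tested. At an adjusted p under 0.05, 38 of the 54 were called, or 70.4%, where 58.1% of all genes tested were called. In adenoma 18 were higher, against 30.3% of all genes, and 20 were lower, against 27.8%. The median log2 fold change of the 54 was -0.17, against 0.04 for all genes, and placing Il13ra2, which had no count in wild type, at its lower bound left it at -0.17. Against a fold change of 2, tested with glmTreat, 10 of the 54 were higher, against 5.66% of all genes, and 5 were lower, against 7.52%, or 15 in all against 13.2%. In 36 of the 54 the 2 groups did not overlap in CPM, which held for 56.9% of all genes. The test had a minimum count, and 8 of the 54 passed it through the adenomas alone (Il4, Il11, Il23a, Il6, Il13ra2, Il1f9, Il17c and Il17d) and 2 through wild type alone (Il22ra2 and Il23r). Passing through 1 group all but fixed the direction of a gene, although Il4 was not called. The counts thus describe the tested genes and support nothing further. Among the 43 that passed in both groups, 11 were higher and 18 lower.

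By role, 9 of the 13 ligands tested were higher, 2 lower and 2 not called, with a median log2 fold change of 1.86, but 6 of the 9 (Il6, Il11, Il23a, Il1f9, Il17c and Il17d) passed the minimum through the adenomas alone, which all but fixed their direction. Of the ligands that passed in both groups, 3 rose (Il1a, Il1b and Il33) and 2 fell (Il15 and Il18). Of the 35 receptor chains tested, 8 were higher, 15 lower and 12 not called, with a median of -0.53. Among these, Il13ra2 passed the minimum through the adenomas alone and Il22ra2 and Il23r through wild type alone. That all but fixed the direction of these genes. Over all genes tested 30.3% were higher and 27.8% lower, and the difference between ligands and receptors was not tested.

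**Figure D1:**
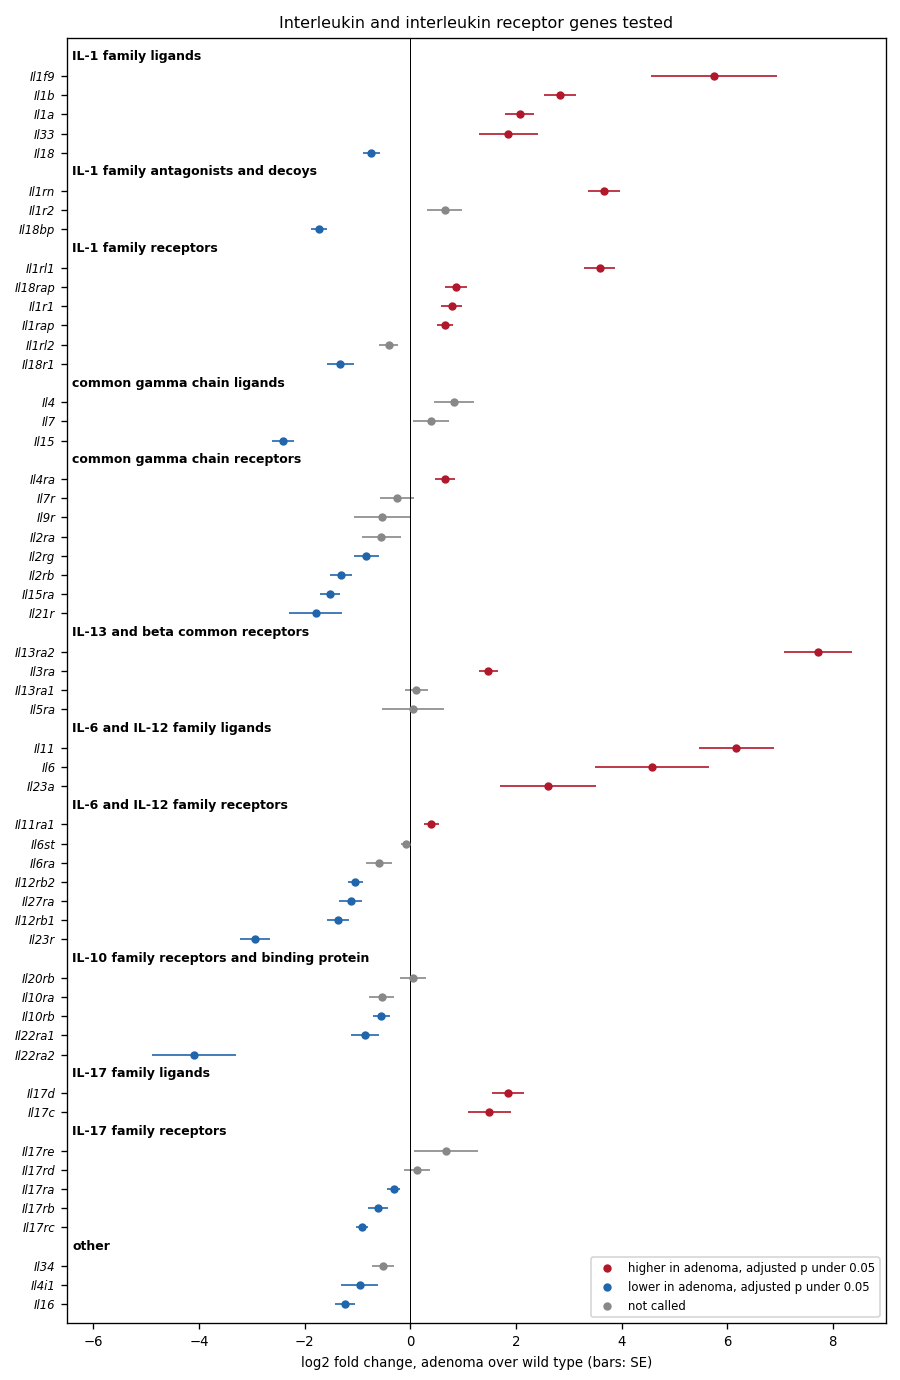
Log2 fold change of each of the 54 tested genes, adenoma over wild type, by role; points are estimates and bars the SE, red and blue mark genes called higher and lower and grey those not called. Il11, Il1f9, Il6, Il1rn and Il1rl1 lie far to the right and Il22ra2, Il23r and Il15 farthest to the left; the point of Il13ra2, with 0 counts in wild type, depends on the fitting and is no bound.

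Promoter sequence was examined for the 21 genes with an adjusted p under 0.05, a mean of at least 1 CPM and a log2 fold change of at least 1 in size, which are described in full below. RefSeq promoter windows on GRCm38.p6, from 250 bases before to 50 bases after a transcript start, matched 65 of the 81 symbols and 15 of these 21 genes, with 25 windows. They were searched on both strands for TGANTCA (AP-1), TTCNNNGAA (STAT), GGANTTNCC (NF-kB) and CTTTGAT (TCF), where N is any base. The AP-1 letters were in 6 of the 25 windows, each of a different gene (Il1a, Il1rn, Il6, Il11, Il15ra and Il16), against 7.81% of all 32851 windows. The NF-kB letters were in 5 of the 25 (3.95% of all windows), the STAT letters in 3 (8.3%) and the TCF letters in 1 (3.73%). Of the 6 AP-1 genes, Il1a, Il1rn, Il6 and Il11 rose by more than a factor of 2, and Il15ra and Il16 fell. Windows of interleukin genes outside the 21 held the AP-1 letters too, among them those of Il22ra1, Il17rb and Il5ra. A match is a description of the letters, not of a bound site.

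Of these 21 genes, those that passed the test against a factor of 2 and held a match are shown with 1 such window each, so that the position of the letters can be read, 6 of genes that rose and that of Il15ra, which fell. They run 5′ to 3′ on the strand of the gene, from 250 bases before to 30 bases after the start, with the matched letters in capitals. The first 5 hold the AP-1 letters, which begin at position -141 in Il1rn, -12 in Il1a, -98 in Il11, -249 in Il6 and -30 in Il15ra, counting the start as 1 and the base before it as -1. Il6 holds in addition the NF-kB letters at -43, Il1rl1 holds the NF-kB letters at 8 and Il17d the STAT letters at 20. The windows are at chr2:24336610-24336889 (plus strand) for Il1rn, chr2:129309943-129310222 (minus strand) for Il1a, chr7:4778112-4778391 (minus strand) for Il11 and chr5:30012864-30013143 (plus strand) for Il6. The others are at chr2:11705462-11705741 (plus strand) for Il15ra, chr1:40439379-40439658 (plus strand) for Il1rl1 and chr14:57524579-57524858 (plus strand) for Il17d.
Il1rn: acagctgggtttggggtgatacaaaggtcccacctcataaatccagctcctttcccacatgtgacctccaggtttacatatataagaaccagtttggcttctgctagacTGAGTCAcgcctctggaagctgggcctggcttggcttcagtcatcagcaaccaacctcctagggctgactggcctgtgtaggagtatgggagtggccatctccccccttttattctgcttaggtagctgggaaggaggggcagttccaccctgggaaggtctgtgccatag
Il1a: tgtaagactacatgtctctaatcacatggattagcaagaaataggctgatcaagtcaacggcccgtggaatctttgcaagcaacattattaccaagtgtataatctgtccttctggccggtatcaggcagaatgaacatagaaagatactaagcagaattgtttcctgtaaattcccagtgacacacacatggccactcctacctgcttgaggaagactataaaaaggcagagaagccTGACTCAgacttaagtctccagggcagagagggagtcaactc
Il11: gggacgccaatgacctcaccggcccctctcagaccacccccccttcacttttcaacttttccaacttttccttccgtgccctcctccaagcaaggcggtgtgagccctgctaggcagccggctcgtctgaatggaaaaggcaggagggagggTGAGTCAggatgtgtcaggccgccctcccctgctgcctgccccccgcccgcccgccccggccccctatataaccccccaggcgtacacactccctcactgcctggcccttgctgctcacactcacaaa
Il6: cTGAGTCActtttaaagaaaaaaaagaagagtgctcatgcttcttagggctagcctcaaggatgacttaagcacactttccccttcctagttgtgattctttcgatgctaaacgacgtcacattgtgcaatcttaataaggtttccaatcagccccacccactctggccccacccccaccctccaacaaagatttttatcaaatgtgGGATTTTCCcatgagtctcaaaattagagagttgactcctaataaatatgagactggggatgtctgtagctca
Il15ra: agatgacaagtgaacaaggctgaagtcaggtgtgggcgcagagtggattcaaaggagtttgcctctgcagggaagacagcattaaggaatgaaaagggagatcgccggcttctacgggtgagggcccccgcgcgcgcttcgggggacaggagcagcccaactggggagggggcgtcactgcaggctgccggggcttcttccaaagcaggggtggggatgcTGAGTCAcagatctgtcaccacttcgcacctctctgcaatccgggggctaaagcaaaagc
Il1rl1: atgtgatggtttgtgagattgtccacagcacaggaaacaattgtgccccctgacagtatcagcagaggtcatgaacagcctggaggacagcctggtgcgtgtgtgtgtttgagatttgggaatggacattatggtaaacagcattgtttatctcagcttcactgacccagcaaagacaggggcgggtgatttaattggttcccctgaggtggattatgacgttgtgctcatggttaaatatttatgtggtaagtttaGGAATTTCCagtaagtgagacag
Il17d: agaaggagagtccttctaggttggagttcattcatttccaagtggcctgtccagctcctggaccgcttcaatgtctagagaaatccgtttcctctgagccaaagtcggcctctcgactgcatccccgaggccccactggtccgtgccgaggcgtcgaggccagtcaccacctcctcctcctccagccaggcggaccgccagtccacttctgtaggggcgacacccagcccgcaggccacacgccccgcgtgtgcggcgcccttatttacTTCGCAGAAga
No match was found in the windows of Il1b, Il3ra and Il18bp, which are among the 21 and also passed the factor of 2. Il13ra2, with the AP-1 letters at -193, and Il1f9, with the STAT letters at -128, passed it too but had a mean under 1 CPM and are not shown.

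Among the IL-1 family ligands, 4 of the 5 tested rose, Il1f9 among them having passed the minimum through the adenomas alone, and 1 fell. Over all genes tested 30.3% were higher and 27.8% lower. Il1b encodes IL-1 beta, a secreted alarm cytokine of myeloid cells that is cleaved by caspase-1. It stood at 2.85, 3.79 and 3.27 CPM in wild type 1 to 3 and 24.5, 35.7, 13.8, 21.9 and 22.0 CPM in adenoma 1 to 5. Every adenoma lay above every wild-type sample, and Il1b rose (log2 fold change 2.83 ± 0.30 (SE), adjusted p = 0.00013). Il1a, which encodes the related ligand IL-1 alpha, stood at 2.19, 2.34 and 1.53 CPM in wild type 1 to 3 and 6.29, 7.61, 6.52, 11.4 and 10.7 CPM in adenoma 1 to 5. The groups did not overlap here either, and adenomas 4 and 5 were highest (log2 fold change 2.07 ± 0.28 (SE), adjusted p = 0.000396). The 2 genes are neighbours on the minus strand of chromosome 2 (129299610 to 129371139, GRCm38).

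Their antagonist rose too. Il1rn encodes the IL-1 receptor antagonist, which occupies the receptor without signalling. Il1rn stood at 2.24, 4.46 and 3.49 CPM in wild type 1 to 3 and 44.0, 59.1, 30.8, 46.3 and 35.8 CPM in adenoma 1 to 5. The lowest adenoma was far above the highest wild-type sample, and the rise was 12.7-fold (log2 fold change 3.67 ± 0.30 (SE), adjusted p = 4.20e-05). Per kb of exon, which allows genes to be compared, the level of Il1rn was 0.155 to 0.254 of the summed level of Il1a and Il1b in the wild-type libraries and 0.382 to 0.528 of it in the adenomas. The antagonist thus stayed below the summed ligands per length in all 8 libraries, but this order depends on the length used. That length takes all annotated exons together, 5535 bases for Il1rn against 1974 for Il1a and 1907 for Il1b. In plain CPM Il1rn lay above the summed ligands in every adenoma and below them in every wild-type library. Il1r2, a decoy receptor for IL-1, was at 2.75 to 2.90 CPM in wild type and 2.28 to 6.39 CPM in adenoma, the groups overlapped, and it was not called (adjusted p = 0.115), though it was called higher without adenoma 3.

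Il1rn closes a row of IL-1 family genes on the plus strand of chromosome 2, within 198.333 kb (24153161 to 24351494). The other genes in the row encode IL-36 ligands (Il1f6, Il1f8 and Il1f9), their antagonist (Il1f5) and Il1f10. Il1f9, which encodes IL-36 gamma, had 1 count in the 3 wild-type libraries together and 157 in the adenomas, where it stood at 1.03, 1.69, 0.268, 0.692 and 2.61 CPM in adenoma 1 to 5. The ratio of its summed counts, scaled to library size, was 74.5, with an exact 95% interval of 13.2 to 2962 that covers counting error only, and it was called higher (adjusted p = 0.00341). Il1f6, which encodes IL-36 alpha, had 0 counts in wild type and 17, 3, 0, 7 and 55 in adenoma 1 to 5, which was at least 13.0-fold higher with wild type set to a floor of 3 counts over the group. Adenoma 5 held most of these counts, and Il1f6 missed the minimum for the test. Il1f8, Il1f5 and Il1f10 had 18, 2 and 1 counts over all libraries. Il1rl2, the receptor chain for the IL-36 ligands, stood at 3.67, 4.24 and 4.09 CPM in wild type 1 to 3 and 3.50, 3.52, 2.68, 2.55 and 2.81 CPM in adenoma 1 to 5. All adenomas lay below all wild-type samples, yet the test did not pass (log2 fold change -0.41 ± 0.18 (SE), adjusted p = 0.0755).

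Among the genes that rose, Il33 had the highest level per kb in adenoma, and its receptor Il1rl1 rose with it. Il33 encodes an alarmin kept in the nucleus of epithelial and stromal cells. Il33 stood at 48.2, 36.3 and 36.3 CPM in wild type 1 to 3 and 222, 33.0, 116, 189 and 170.0 CPM in adenoma 1 to 5. Adenoma 2 was below all wild-type samples and the other 4 adenomas were above them (log2 fold change 1.86 ± 0.56 (SE), adjusted p = 0.0222). Without adenoma 2 the log2 fold change was 2.11 with an adjusted p of 0.000146, while leaving out wild type 1, 2 or 3 ended the call, with adjusted p of 0.0506, 0.0709 and 0.0736. Il1rl1 encodes ST2, the receptor chain for IL-33, carried by mast cells, regulatory T cells and type 2 innate lymphoid cells. It stood at 9.57, 15.5 and 11.8 CPM in wild type 1 to 3 and 159, 115, 189, 178 and 99.0 CPM in adenoma 1 to 5. No adenoma came near the wild-type range, and the rise was 12.0-fold (log2 fold change 3.58 ± 0.29 (SE), adjusted p = 4.03e-05). Il1rap, the accessory chain that ST2 and the IL-1 receptor share, was at 9.25 to 10.4 CPM in wild type and 12.2 to 19.2 CPM in adenoma and rose (log2 fold change 0.66 ± 0.15 (SE), adjusted p = 0.00524). Il1r1, the signalling receptor for IL-1, was at 14.4 to 16.8 CPM in wild type and 21.7 to 38.0 CPM in adenoma and rose as well (log2 fold change 0.78 ± 0.19 (SE), adjusted p = 0.00837).

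The IL-18 axis went down at the ligand, the decoy and the binding chain. Il18 encodes a ligand made by epithelium and cleaved by caspase-1. Il18 stood at 45.7, 60.2 and 49.4 CPM in wild type 1 to 3 and 25.0, 40.2, 30.5, 33.1 and 26.5 CPM in adenoma 1 to 5. It fell without overlap (log2 fold change -0.74 ± 0.16 (SE), adjusted p = 0.00481), though not when the libraries were scaled to pan-epithelial genes (adjusted p = 0.105). Il18bp encodes the secreted binding protein that neutralises IL-18. Il18bp stood at 18.4, 19.95 and 19.3 CPM in wild type 1 to 3 and 5.64, 7.04, 4.29, 5.97 and 5.89 CPM in adenoma 1 to 5. The fall was 3.33-fold with a narrow spread in both groups (log2 fold change -1.74 ± 0.15 (SE), adjusted p = 4.94e-05), and the level per kb relative to Il18 went from 0.113 to 0.137 in wild type to 0.0480 to 0.0768 in adenoma. Il18r1, the ligand-binding receptor chain, stood at 6.82, 7.58 and 5.89 CPM in wild type 1 to 3 and 2.0, 2.82, 2.50, 1.95 and 4.16 CPM in adenoma 1 to 5 and fell (log2 fold change -1.33 ± 0.26 (SE), adjusted p = 0.00254). The accessory chain Il18rap instead rose, with 3.27 to 3.72 CPM in wild type and 5.09 to 8.40 CPM in adenoma (log2 fold change 0.87 ± 0.21 (SE), adjusted p = 0.00698).

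These receptor chains are neighbours. Il1r2, Il1r1, Il1rl2, Il1rl1, Il18r1 and Il18rap lie in this order on the plus strand of chromosome 1 within 477.626 kb (40074079 to 40551705, GRCm38), with no other protein-coding gene between them. Il1rl1 ends 0.137 kb before Il18r1 begins. Il1rl1 rose 12.0-fold and Il18r1 fell 2.51-fold, so that the ratio of their levels per kb went from 0.980, 1.43 and 1.40 in wild type 1 to 3 to 55.3, 28.4, 52.8, 63.9 and 16.6 in adenoma 1 to 5. The ratio is a description and was not tested.

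**Figure D2:**
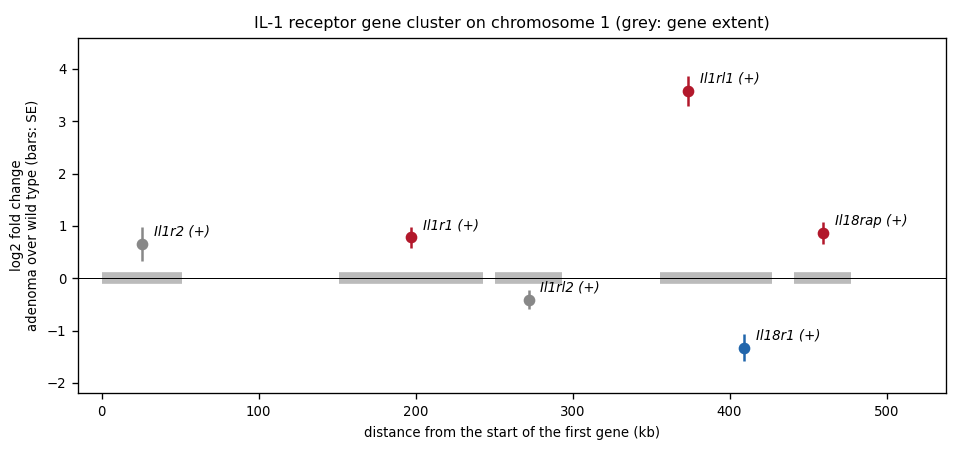
Log2 fold change, adenoma over wild type, of the 6 IL-1 family receptor genes against the distance in kb from the start of Il1r2; points are estimates at gene centres, bars the SE, grey blocks the genes, red called higher, blue called lower and grey not called. The adjacent Il1rl1 and Il18r1 lie at 3.58 and -1.33.

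Markers of the cells known for these genes moved too, where 30.3% of all genes tested were higher and 27.8% lower. Of 7 mast cell markers 6 were higher, and the summed level went from 13.9 to 19.2 CPM in wild type to 63.0 to 158 CPM in adenoma. Fcer1a and Cma1 were each at 0 in at least 1 wild-type library, so wild type alone could not bring them past the minimum count. Il1rl1 was 50% to 85.1% of that sum in wild type and 62.5% to 300.4% in adenoma, with adenoma 5, the richest in mast cell markers, inside the wild-type range. Of 7 neutrophil markers 6 were higher, from 4.99 to 6.27 CPM in sum to 16.5 to 93.0 CPM. Ly6g was at 0 in all wild-type libraries and passed the minimum count through the adenomas alone, which all but fixed its direction. The counts of mast cell and neutrophil markers called thus describe the tested markers and support nothing further. Il1b was 52.2% to 68.0% of the neutrophil sum in wild type and 38.4% to 83.5% in adenoma, so its range there enclosed that of wild type. Of 10 macrophage and dendritic cell markers 1 was higher and 2 lower, with sums of 403 to 472 CPM in wild type and 328 to 805.0 CPM in adenoma. Against that sum Il1b was 0.604% to 0.844% in wild type and 4.20% to 6.15% in adenoma. The part of these cells in the results was not tested.

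**Figure D3:**
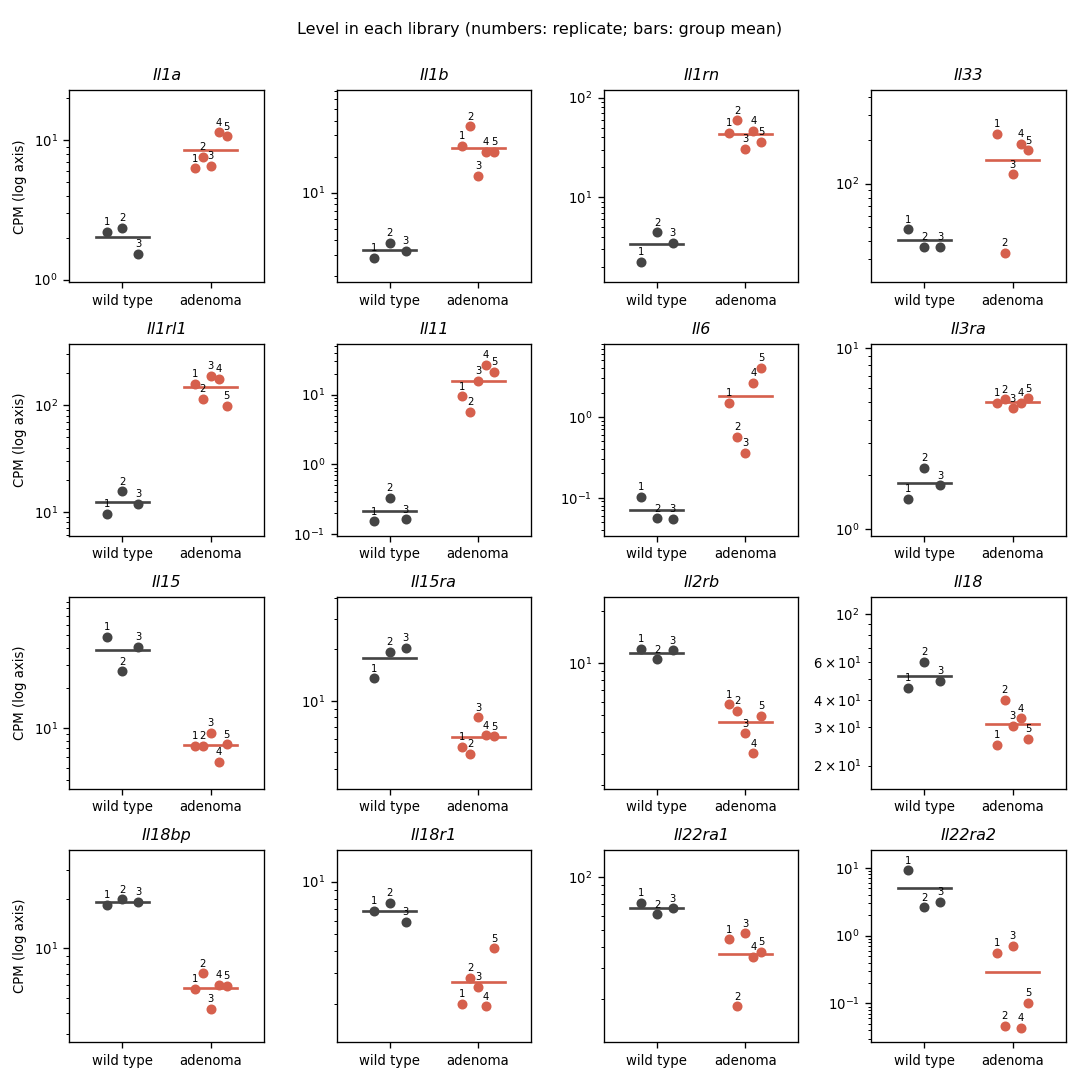
CPM on log axes of 16 interleukin genes in each library; points are libraries numbered by replicate, bars the group means, dark for wild type and red for adenoma. Il33 is the gene shown whose groups overlap, through adenoma 2 at 33.0 CPM, and the adenomas of Il3ra lie between 4.65 and 5.28 CPM.

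Genes of the common gamma chain cytokines mostly fell or were not called. Of the 3 ligands tested 1 fell, and of the 8 receptor chains tested 4 fell and 1 rose. Among all genes tested 58.1% were called, 30.3% higher and 27.8% lower. Il15 encodes the ligand that sustains intraepithelial lymphocytes and natural killer cells, and epithelial and myeloid cells present it bound to Il15ra. Il15 (chromosome 8, 82331632 to 82403222) stood at 49.0, 26.8 and 41.0 CPM in wild type 1 to 3 and 7.27, 7.32, 9.16, 5.53 and 7.51 CPM in adenoma 1 to 5. The highest adenoma was under the lowest wild-type sample by a wide margin, and the fall was 5.29-fold (log2 fold change -2.40 ± 0.21 (SE), adjusted p = 4.96e-05). Il15ra stood at 13.5, 19.3 and 20.4 CPM in wild type 1 to 3 and 5.36, 4.88, 8.0, 6.27 and 6.19 CPM in adenoma 1 to 5. It fell by less than Il15 (log2 fold change -1.53 ± 0.19 (SE), adjusted p = 0.000259), and the level per kb of Il15ra relative to Il15 overlapped between groups, at 0.141 to 0.367 in wild type and 0.339 to 0.576 in adenoma. Whether the 2 falls differ was not tested.

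The chains that transmit the IL-15 signal fell as well. Il2rb, the beta chain shared by IL-2 and IL-15, stood at 12.0, 10.5 and 11.8 CPM in wild type 1 to 3 and 5.78, 5.31, 3.93, 3.03 and 4.98 CPM in adenoma 1 to 5 and fell (log2 fold change -1.31 ± 0.21 (SE), adjusted p = 0.000845). Il2rg, the common gamma chain itself, lies on chromosome X and stood at 6.67, 3.46 and 4.15 CPM in wild type 1 to 3 and 2.24, 2.86, 2.99, 3.03 and 2.27 CPM in adenoma 1 to 5. It fell (log2 fold change -0.83 ± 0.24 (SE), adjusted p = 0.0168), but did not pass with wild type 1 left out (adjusted p = 0.0849), and 30.5% of its exon bases are shared on the same strand with the gene model Gm20489, whose reads cannot be told apart from it where they overlap. Il2ra, the high-affinity chain for IL-2, was at 0.655 to 1.22 CPM in wild type and 0.389 to 0.986 CPM in adenoma and was not called. Il2 itself had 5 counts over all libraries.

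Il21r encodes the receptor for IL-21, a helper T cell cytokine that acts on B cells. It stood at 13.5, 3.01 and 3.27 CPM in wild type 1 to 3 and 2.10, 2.72, 1.43, 1.25 and 2.03 CPM in adenoma 1 to 5. Wild type 1 was 4 to 5 times the other wild-type samples, and without it the log2 fold change went from -1.79 ± 0.51 (adjusted p = 0.0153) to -0.71 with an adjusted p of 0.0935. B cell genes were high in the same library, with Ms4a1, which encodes the B cell surface protein CD20, at 34.1 CPM in wild type 1 and no more than 2.21 CPM in the other 7. Of 7 B and plasma cell markers 1 was higher and 1 lower, with sums, mostly of Jchain, of 1324 to 1403 CPM in wild type and 988 to 1538 CPM in adenoma. Il4ra, the receptor for IL-4 and IL-13, stood at 111, 103 and 93.1 CPM in wild type 1 to 3 and 177, 105, 149, 180.5 and 191 CPM in adenoma 1 to 5. Adenoma 2 lay inside the wild-type range and the other 4 above it (log2 fold change 0.65 ± 0.19 (SE), adjusted p = 0.0171), and wild type 3 decided the call (adjusted p = 0.0690 when left out). Il4, Il7, Il7r and Il9r were not called, with adjusted p of 0.0879, 0.350, 0.515 and 0.426, although Il4 was called higher without wild type 2.

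Markers of the lymphocytes that carry these chains fell with them. Of 9 T cell markers tested 6 were lower and 1, Thy1, was higher, where 27.8% of all genes tested were lower and 30.3% higher. The sum went from 56.1 to 72.5 CPM in wild type to 26.5 to 38.2 CPM in adenoma. Thy1 stayed in this sum, and its rise makes every share of the T cell sum smaller in adenoma. Of 6 innate lymphoid cell markers tested 3 were lower, with sums of 64.5 to 85.4 CPM and 39.0 to 60.1 CPM. Il2rb was 16.6% to 19.8% of the T cell sum in wild type and 11.4% to 18.4% in adenoma, and Il2rg 6.16% to 9.20% and 5.94% to 11.4%, so these shares overlapped. The part of lymphocyte number in the falls was not tested.

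**Figure D4:**
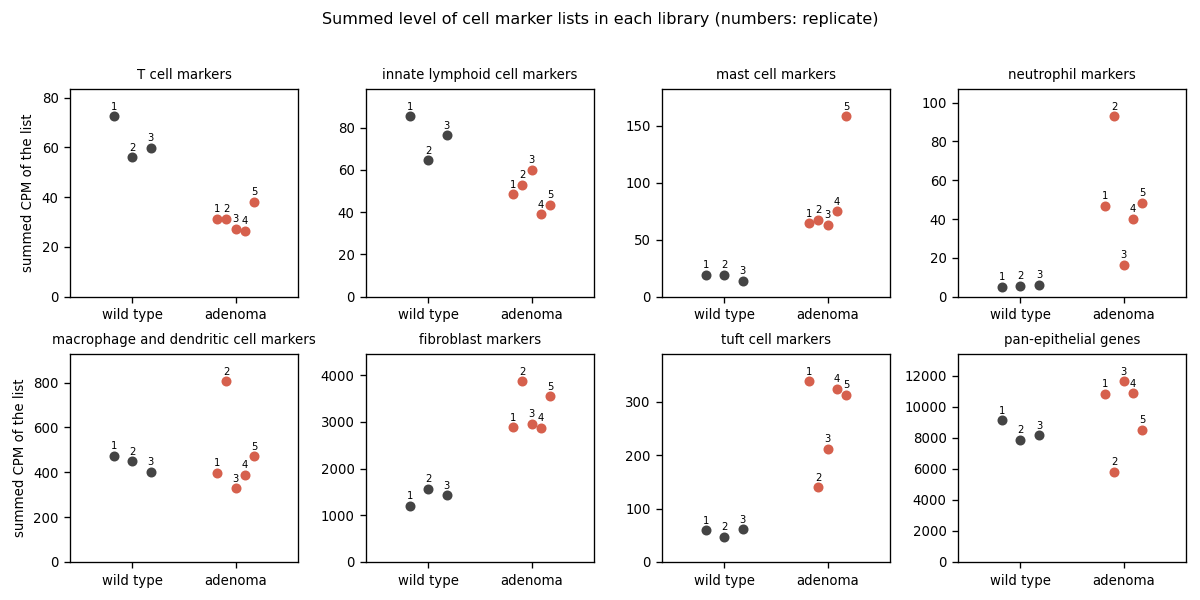
Summed CPM of 8 cell marker lists in each library; points are libraries numbered by replicate, dark for wild type and red for adenoma, and each axis starts at 0. T cell sums are 56.1 to 72.5 CPM in wild type and 26.5 to 38.2 CPM in adenoma, mast cell sums 13.9 to 19.2 and 63.0 to 158 CPM.

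The receptors of IL-13 and of the beta common chain showed 2 rises and no fall among 4 tested. Of all genes tested 58.1% were called, 30.3% being higher. Il13ra2 passed the minimum count through the adenomas alone, which all but fixed its direction. Il13ra2 encodes a high-affinity receptor for IL-13 that is best known as a decoy. It had 0 counts in all 3 wild-type libraries and stood at 1.31, 1.31, 0.849, 1.17 and 1.39 CPM in adenoma 1 to 5. With wild type at a floor of 3 counts over the group it was at least 22.6-fold higher, and it was called (adjusted p = 0.000134). It lies on chromosome X, and adenoma 1, with the male pattern like wild type, was at 1.31 CPM. For the other adenomas sex and genotype cannot be told apart. Il13ra1, which pairs with Il4ra in the signalling receptor, was at 162 to 208 CPM in wild type and 114 to 234 CPM in adenoma and was not called (adjusted p = 0.673). Il13, the ligand, had 5 counts over all libraries.

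Il3ra, the alpha chain of the IL-3 receptor found on mast cells, basophils and myeloid progenitors, stood at 1.48, 2.17 and 1.75 CPM in wild type 1 to 3 and 4.99, 5.21, 4.65, 4.97 and 5.28 CPM in adenoma 1 to 5. It rose with the least spread among the adenomas of any gene shown in the plot of levels by library (log2 fold change 1.48 ± 0.18 (SE), adjusted p = 0.000221). Il3ra was 7.71% to 12.5% of the mast cell sum in wild type and 3.34% to 7.75% in adenoma. Il3, its ligand, had 4 counts, all in wild type. Il5ra was at 0.167 to 0.713 CPM in wild type and 0.135 to 0.704 CPM in adenoma and not called, with 11 counts of Il5 over all libraries.

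Among the IL-6 and IL-12 family ligands Il6, Il11 and Il23a were tested and rose, from wild-type levels under 1 CPM. All 3 passed the minimum count through the adenomas alone, so that count says nothing of the family, and 30.3% of all genes tested were higher. Il11 encodes a stromal cytokine that acts on epithelium and fibroblasts through gp130. Il11 (chromosome 7, 4772373 to 4782859) stood at 0.153, 0.334 and 0.164 CPM in wild type 1 to 3 and 9.51, 5.73, 15.9, 27.0 and 21.3 CPM in adenoma 1 to 5. The rise was 72.0-fold (log2 fold change 6.17 ± 0.71 (SE), adjusted p = 0.000225), the largest fold among the called genes that had more than 3 counts in wild type. Il6, which encodes the acute-phase cytokine IL-6, stood at 0.102, 0.0557 and 0.0546 CPM in wild type 1 to 3 and 1.49, 0.563, 0.357, 2.64 and 4.03 CPM in adenoma 1 to 5. It spread over more than a factor of 10 among the adenomas, all of which were above wild type (log2 fold change 4.58 ± 1.09 (SE), adjusted p = 0.00691). Fibroblast markers rose as well, 7 of 8 being higher, from 1202 to 1565 CPM in sum in wild type to 2871 to 3867 CPM in adenoma. Il11 was 0.0115% to 0.0214% of that sum in wild type and 0.148% to 0.940% in adenoma, so the groups did not overlap in this share either. Il33 was 2.32% to 4.01% of it in wild type and 0.854% to 7.69% in adenoma, with overlap.

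Of the 3 chains that receive IL-6 and IL-11, 1 was called. Il6st, which encodes gp130, the signalling chain of IL-6 and IL-11, was at 117 to 127 CPM in wild type and 105 to 131 CPM in adenoma and was not called (log2 fold change -0.08 ± 0.09 (SE), adjusted p = 0.485). Il6ra, the IL-6 binding chain, was at 7.84 to 9.66 CPM in wild type and 3.80 to 8.87 CPM in adenoma and was not called (adjusted p = 0.0686), although it was called lower without adenoma 2, as were Il1rl2, Il10ra and Il34. DESeq2 also called Il6ra (adjusted p = 0.0349) and Il10ra (0.0430) lower, and limma-voom Il6ra (0.0416). Il11ra1, the IL-11 binding chain, was at 10.4 to 12.6 CPM in wild type and 12.8 to 18.2 CPM in adenoma and was called higher (log2 fold change 0.40 ± 0.14 (SE), adjusted p = 0.0373). That call is uncertain, since it was lost without wild type 2 or 3 or adenoma 1 or 5, with adjusted p up to 0.123, and since reads that also match the near-identical Il11ra2, listed at 0 in all 3 of its rows, may not have been counted.

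The IL-12 and IL-23 axis went up at 1 ligand subunit and down at the receptors. The minimum count was passed by Il23a through the adenomas alone and by Il23r through wild type alone. The directions of these genes were thus all but fixed. Il23a encodes the IL-23 subunit p19. Il23a stood at 0.407, 0.390 and 0.164 CPM in wild type 1 to 3 and 1.03, 6.01, 0.804, 0.692 and 1.46 CPM in adenoma 1 to 5. Adenoma 2 held the highest level, and without it the log2 fold change went from 2.61 ± 0.91 (adjusted p = 0.0369) to 1.62 with an adjusted p of 0.00688. The call was lost without wild type 1, 2 or 3 or without adenoma 5, with adjusted p of 0.0845, 0.0833, 0.116 and 0.0506. Il12b and Il12a, the partner subunit and the subunit of IL-12, had 36 and 16 counts over all libraries.

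Il23r, the IL-23 binding chain of type 3 lymphocytes, stood at 0.968, 1.06 and 0.818 CPM in wild type 1 to 3 and 0.140, 0.0939, 0.134, 0.0865 and 0.135 CPM in adenoma 1 to 5. It fell 7.67-fold without overlap (log2 fold change -2.94 ± 0.29 (SE), adjusted p = 9.27e-05). Il23r had only 3, 2, 3, 2 and 4 counts in adenoma 1 to 5, so its adenoma values are near the floor. Against the T cell markers it was 1.33% to 1.89% of their sum in wild type and 0.301% to 0.489% in adenoma, and these shares did not overlap. The shares of the neighbouring receptors did overlap, at 5.06% to 7.36% in wild type and 4.16% to 6.48% in adenoma for Il12rb1, 8.64% to 12.0% and 7.19% to 12.1% for Il12rb2, and 9.41% to 13.5% and 6.39% to 10.9% for Il18r1. Il12rb1, the chain shared by both cytokines, stood at 3.67, 4.12 and 3.82 CPM in wild type 1 to 3 and 1.31, 2.02, 1.25, 1.21 and 1.69 CPM in adenoma 1 to 5 and fell (log2 fold change -1.37 ± 0.21 (SE), adjusted p = 0.00084). Il12rb2, the IL-12 specific chain, stood at 6.26, 6.74 and 6.11 CPM in wild type 1 to 3 and 2.84, 3.38, 3.26, 3.20 and 2.74 CPM in adenoma 1 to 5 and fell (log2 fold change -1.05 ± 0.14 (SE), adjusted p = 0.000406), but 40.0% of its exon bases overlap the antisense gene Serbp1, whose reads an unstranded library cannot separate. Il27ra, the IL-27 receptor chain of lymphocytes, stood at 5.75, 3.46 and 3.93 CPM in wild type 1 to 3 and 1.96, 1.78, 1.70, 1.99 and 2.54 CPM in adenoma 1 to 5 and fell (log2 fold change -1.13 ± 0.22 (SE), adjusted p = 0.00265). Il27 had 42 counts over all libraries and was not tested.

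The IL-10 family had no testable ligand, with 39 counts for Il10, 24 for Il19, 11 for Il22, 5 for Il24 and 0 for Il20. Its receptors and binding protein fell in 3 of 5 cases tested, where 58.1% of all genes tested were called and 27.8% were lower. Il22ra2 passed the minimum count through wild type alone, which all but fixed its direction. Il22ra2 encodes a secreted protein that binds IL-22 and keeps it from its receptor. Il22ra2 stood at 9.17, 2.62 and 3.16 CPM in wild type 1 to 3 and 0.559, 0.0470, 0.715, 0.0432 and 0.102 CPM in adenoma 1 to 5. Wild type 1 was highest and adenomas 2 and 4 held 1 count each, yet the groups did not overlap (log2 fold change -4.09 ± 0.80 (SE), adjusted p = 0.00273). The log2 fold change was -3.30 without wild type 1 and -4.74 without adenoma 3. Il22ra1, the epithelial IL-22 receptor chain, stood at 71.5, 61.3 and 66.3 CPM in wild type 1 to 3 and 44.0, 18.2, 47.8, 35.1 and 37.3 CPM in adenoma 1 to 5. It fell (log2 fold change -0.86 ± 0.26 (SE), adjusted p = 0.0206) and was lowest in adenoma 2, but did not pass with wild type 1 or 3 left out (adjusted p = 0.0710 and 0.0577). The level per kb of Il22ra2 relative to Il22ra1 was 0.0440 to 0.132 in wild type and 0.00127 to 0.0154 in adenoma. Il10rb, the chain shared by the IL-10 and IL-22 receptors, was at 65.2 to 91.7 CPM in wild type and 40.6 to 62.8 CPM in adenoma and fell (log2 fold change -0.55 ± 0.16 (SE), adjusted p = 0.0170), with 14.9% of its exon bases shared with the gene model Gm21970, a call that ended when wild type 1 or 3 was left out (adjusted p = 0.0830 and 0.0527). Il10ra and Il20rb were not called, with adjusted p of 0.0735 and 0.859.

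In the IL-17 family 2 ligands rose, both of which passed the minimum count through the adenomas alone, and 3 of 5 receptor chains fell. The shares over all genes tested were 30.3% higher and 27.8% lower. Il17d, one of the less studied ligands, stood at 0.356, 0.836 and 0.546 CPM in wild type 1 to 3 and 2.05, 2.35, 1.65, 2.38 and 2.0 CPM in adenoma 1 to 5 and rose (log2 fold change 1.84 ± 0.30 (SE), adjusted p = 0.00104). Il17c, an epithelial ligand that acts on epithelium, stood at 0.255, 0.167 and 0.164 CPM in wild type 1 to 3 and 0.559, 0.751, 0.313, 0.519 and 0.677 CPM in adenoma 1 to 5 and rose (log2 fold change 1.50 ± 0.40 (SE), adjusted p = 0.0118). The T cell ligands were scarce. Il17a had 32 of its 41 counts in adenoma 5, and Il17f and Il17b had 7 and 3 counts over all libraries. Il17rc, which pairs with Il17ra to receive IL-17A and IL-17F, stood at 90.3, 95.1 and 90.6 CPM in wild type 1 to 3 and 56.4, 40.8, 52.5, 50.8 and 43.5 CPM in adenoma 1 to 5 and fell (log2 fold change -0.91 ± 0.11 (SE), adjusted p = 0.000237). Il17rb was at 4.75 to 5.50 CPM in wild type and 2.63 to 4.30 CPM in adenoma and fell (log2 fold change -0.60 ± 0.19 (SE), adjusted p = 0.0236), though not with wild type 1 or 2 left out (adjusted p = 0.0747 and 0.0716). Il17ra, the chain common to the family, was at 22.3 to 30.8 CPM in wild type and 19.7 to 20.8 CPM in adenoma (log2 fold change -0.31 ± 0.12 (SE), adjusted p = 0.0480), and its call ended when wild type 1 or adenoma 1, 3, 4 or 5 was left out (adjusted p = 0.0693 to 0.199). Il17re, the receptor chain for IL-17C, and Il17rd were not called.

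Of the 3 other genes, 2 fell, where 27.8% of all genes tested were lower. Il16 encodes a chemoattractant for CD4+ cells, cut from a larger precursor. Il16 stood at 21.9, 12.3 and 15.8 CPM in wild type 1 to 3 and 7.64, 7.79, 6.43, 5.84 and 7.58 CPM in adenoma 1 to 5 and fell (log2 fold change -1.24 ± 0.19 (SE), adjusted p = 0.000736), with 15.3% of its exon bases overlapping the antisense gene Stard5. It was 22.0% to 30.3% of the T cell sum in wild type and 19.9% to 25.0% in adenoma. Il4i1, an amino acid oxidase named for its induction by IL-4, was called lower (log2 fold change -0.95 ± 0.35 (SE), adjusted p = 0.0434), but 83.9% of its exon bases overlap the antisense gene Tbc1d17. That call ended when wild type 1 was left out (adjusted p = 0.301) and likewise for adenoma 1, 3, 4 or 5 (adjusted p = 0.0682 to 0.0853). Il34, a ligand of the Csf1 receptor, was not called (log2 fold change -0.52 ± 0.21, adjusted p = 0.0594), but it was called lower with DESeq2 (adjusted p = 0.0299), limma-voom (0.0434), RLE scaling (0.0451) and the filter of 5 CPM (0.0414).

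The order of levels per kb of exon changed between the groups. In wild type Il18 (50.2 CPM per kb), Il13ra1 (48.7), Il17rc (34.4), Il22ra1 (25.8) and Il10rb (20.6) were highest. In adenoma the first were Il13ra1 (52.9 CPM per kb), Il33 (50.6), Il18 (30.1), Il4ra (26.8) and Il1rl1 (21.4). Il1rl1 went from rank 22 to 5 of the 83 rows, Il1b from 23 to 9, Il1rn from 37 to 11 and Il11 from 56 to 12. The positions of Il13ra1 and Il33 next to each other in adenoma do not separate them, since Il33 ran from 33.0 to 222 CPM there.

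**Figure D5:**
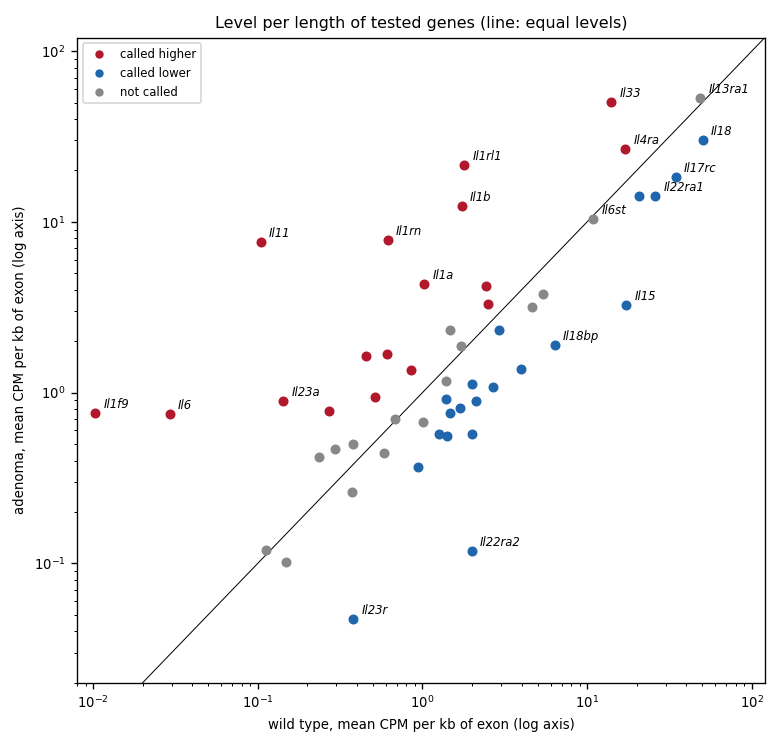
Mean CPM per kb of exon in adenoma (y) against wild type (x) for 53 tested genes, on log axes; each point is a gene, red called higher, blue called lower, grey not called, and the line marks equal levels. Il13ra2, at 0 in wild type, cannot be drawn; Il11, Il1rn and Il1rl1 lie far above the line and Il22ra2 and Il23r far below it.

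The 29 rows that were not tested had 0 to 82 counts over all 8 libraries. Il20, Il31 and the 3 rows of Il11ra2 had 0. Il1f6 had 82, Il20ra 45, Il27 42, Il17a 41, Il10 39, Il12b 36, Il31ra 26 and Il19 24. The others had 18 or fewer, namely Il1f8, Il12a, Il5, Il22, Il1rapl1, Il17f, Il1rapl2, Il2, Il13, Il21, Il24, Il3, Il9, Il17b, Il1f5 and Il1f10. Counting intervals of the scaled ratio, which leave out the spread between samples, could be set for the genes with 1 to 3 counts in a group. Il20ra, a receptor chain for the IL-20 subfamily, had 3 counts in wild type and 42 in adenoma, a scaled ratio of 6.64 (exact 95% interval 2.12 to 33.5), with 23 of them in adenoma 2. Il17a had a ratio of 9.25 (exact 95% interval 2.40 to 79.1), 32 of its 41 counts lying in adenoma 5. Il19 had a ratio of 10.9 (exact 95% interval 1.77 to 449.7), with 14 of its 24 counts in 1 adenoma, and Il1f8 of 8.07 (1.26 to 337). The ratio of wild type over adenoma was 9.48 for Il5 (1.96 to 90.2) and 7.37 for Il1rapl1 (1.40 to 72.8). For Il13, Il24, Il1f5, Il21, Il2, Il17f, Il1rapl2 and Il22 the interval included 1, so a difference was not detectable at this depth.

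Genes that act with the interleukins were taken from 7 lists, and 33 of their 64 tested genes were called, 15 higher and 18 lower, or 51.6%, where 58.1% of all genes tested were called, 30.3% higher and 27.8% lower. Their share called was below that of all genes, and the counts of the single lists are descriptions. Of 11 Janus kinase and STAT genes 3 were higher and 6 lower. Stat2, which also carries interferon signals, went from 70.9 ± 15.9 to 22.0 ± 1.97 CPM (mean ± SD, n = 3 and n = 5) and fell (log2 fold change -1.69 ± 0.15 (SE), adjusted p = 5.15e-05). Stat4, which acts after IL-12, fell (log2 fold change -1.29 ± 0.21 (SE), adjusted p = 0.00105), and Jak3, the kinase of the common gamma chain, rose (log2 fold change 0.75 ± 0.10 (SE), adjusted p = 0.000456). Of 8 SOCS feedback genes 3 were higher and 2 lower, among them Socs5 and Socs6 at log2 fold changes of 1.02 and 1.01 and Socs4 and Cish at -1.15 and -0.98.

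Of 12 adaptors of the IL-1 and Toll receptors 3 were higher and 3 lower. Irak2, a kinase of this pathway, fell from 71.6 ± 1.34 to 33.7 ± 2.95 CPM (log2 fold change -1.09 ± 0.09 (SE), adjusted p = 3.67e-05), as did Tab3 (log2 fold change -1.18) and Tollip (-0.41), while Irak1 rose (0.56). Of 8 genes of IL-1 maturation 3 fell, namely Casp1, the protease that cleaves IL-1 beta and IL-18 (-0.73), Casp4 (-1.27) and Nlrp6 (-1.41). Of 5 genes of IL-17 signalling edgeR called 0, with 1 at an unadjusted p under 0.05, and DESeq2 and limma-voom called 1 each. Among 8 related cytokines tested 3 rose, namely Ctf1 (1.95), Osm (1.73) and Clcf1 (0.92), and Csf2 fell (-2.14). The other 4, Lif, Cntf, Ebi3 and Csf1, were not called. Ctf1 and Osm, at 0.390 and 0.334 CPM in wild type 2, passed the minimum count through the adenomas alone. That all but fixed their direction. Among 12 related receptors tested 3 rose and 3 fell, with Crlf2, the TSLP receptor chain, at a log2 fold change of 1.33, and Ifnlr1 and Csf1r at -0.82 each.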

How the data were processed

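The authors deposited raw counts per gene, and per the submitters' processing notes these came from FastQC, TopHat2 and HTSeq on GRCm38. Versions, annotation release, strand setting and filters were not given in the sources used here. The library kit named in the labels' protocols keeps no strand, so reads from antisense genes that overlap cannot be separated, and near-identical copies may lose reads. Symbols and positions came from GENCODE M21, and promoter windows from RefSeq. No reads were aligned here.

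The count table was fitted whole with edgeR 4.0.16 in R 4.3.3: filterByExpr by group, TMM scaling, robust quasi-likelihood tests, Benjamini-Hochberg adjustment at 0.05 over 18345 genes, and glmTreat against a log2 fold change of 1. CPM use the TMM library sizes, and the SE is the size of the log2 fold change divided by the square root of F. Libraries of the same group differed by more than sampling noise, with a chi-square per degree of freedom of at least 20.1, so each counted as 1 replicate. The scripts were tested on simulated data. Genes given in every library had an adjusted p under 0.05, a mean of at least 1 CPM and a log2 fold change of at least 1 in size, and their ligands and receptors were added; other genes are given by ranges or counts, and up to 4 of each partner list by the smallest adjusted p, except a few that are not reported here. A few were given in more detail after their values were seen. Genes and lists were chosen with earlier results of these data known. Other scalings, filters, a replicate block, left-out libraries, a sex covariate, DESeq2 1.42.0 and limma-voom (limma 3.58.1) were alternatives.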

Additional observations from a re-analysis of the deposited data

Results flagged for a closer look

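Among the 62 interleukin genes that were tested or had at least 20 counts, 5 had 1 adenoma far from the other 4, by a gap of more than 0.71 of the range over the 5 adenomas. For values with a normal spread, chance gives such a gap in about 1 of 20 groups. Some of the 62 genes would thus be flagged by chance, and CPM need not spread that way. In 4 of the 5 genes the library was adenoma 2, which also had little Gata4 and much Hoxb13. Il23a stood at 6.01 CPM there, where the next adenoma was at 1.46 CPM. Il7, which encodes a survival factor of lymphocytes, was at 4.98 CPM in adenoma 2, with the next at 2.67 CPM. Il2ra was at 0.986 CPM there and at 0.559 CPM in the next adenoma. Il20ra, with 23 counts in adenoma 2, was at 1.08 CPM, where the next was at 0.346 CPM. The fifth gene was Il17a, which had 32 counts in adenoma 5 and was at 1.08 CPM there, with the next adenoma at 0.140 CPM. The part of tissue origin in these values was not tested.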

How the results depend on the processing

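No called interleukin gene changed direction under any of the 20 alternatives. Of the 38 calls, 18 held under every alternative that tested the gene, 9 higher (Il11, Il1rl1, Il1rn, Il1b, Il1a, Il13ra2, Il1f9, Il17d and Il3ra) and 9 lower (Il12rb1, Il16, Il12rb2, Il15ra, Il18r1, Il17rc, Il15, Il23r and Il18bp). Il11, Il13ra2, Il1f9, Il17d and Il23r passed the minimum count through 1 group alone, so their kept direction supports nothing further. The filter of 5 CPM did not test Il12rb1, Il13ra2, Il1f9, Il17d and Il23r. RLE scaling kept 37 calls, upper-quartile scaling 37, total counts 36, no filter 35, DESeq2 38 and limma-voom 34, and leaving out the ribosomal RNA-collecting genes kept 37. Leaving out 1 library kept 29 to 38 calls. Over these, the interleukin genes called lower ran from 13 (without wild type 1) to 24 (without adenoma 2), and those higher by more than a factor of 2 from 6 (without wild type 1 or 3) to 11 (without adenoma 2). Leaving out wild type 1 and adenoma 5 together gave 13 lower and 5 higher by more than a factor of 2. With scaling to pan-epithelial genes, which moved the all-gene median log2 fold change from 0.04 to -0.06 and the share of higher among calls from 52.2% to 37.6%, 1997 genes were higher and 3315 lower, against 5558 and 5099. That scaling ended 12 interleukin calls (Il1r1, Il1rap, Il18, Il18rap, Il2rg, Il4ra, Il11ra1, Il23a, Il17c, Il17ra, Il17rb and Il4i1) and left 11 higher, and of the partners 4 higher and 11 lower, against 15 and 18. The filter of 5 CPM, which tests fewer genes, gave 11 interleukin genes higher and 13 lower, 5 and 3 by more than a factor of 2, and 8 partners higher. Adding the sex pattern, which sets adenoma 1 against wild type, left fewer calls, in that 3074 genes were higher and 2298 lower, 10 and 10 of the interleukin genes, 5 and 1 by more than a factor of 2, and 7 and 9 of the partners. The cause of the other differences was not tested.

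Replicate numbers are shared by the groups in the labels, but same-numbered libraries deviated together with correlations of only -0.02, 0.05 and 0.06. Replicates 2 and 3 correlated best with their own number and replicate 1 did not. So small a check cannot exclude a pairing, and the main fit used none. The replicate block gave 3345 genes higher and 3204 lower, 12 and 15 of the interleukin genes, and 7 partners higher. Genes at a few counts per library, such as Il6, Il1f9 and Il23a, are limited by depth.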
